A study of Glycine max with 8 samples.

Results

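The regions described here are stretches of soybean chromatin that were open in both replicate libraries of flower and of seed. In none of them did both libraries of leaf, or both of root, hold open sites that shared at least 20 bp. Open chromatin was mapped as MNase hypersensitive sites, which are places where micrococcal nuclease under light digestion releases short fragments of exposed DNA. The members were chosen from the site lists themselves. Sites of the 2 lists of a tissue were intersected and kept where they shared at least 20 bp, the resulting reproducible regions of the 4 tissues were merged where they overlapped, and merged regions holding flower and seed but neither leaf nor root were kept. This left 1523 of 82398 merged regions, or 1.85%.

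All libraries came from Glycine max of the strain Williams 82, with 2 libraries per tissue. Leaf (trifoliate leaves) and root came from seedlings at stage V2, a vegetative stage. Flower was taken at stage R1, the beginning of bloom, from plants in an experimental field, while the other tissues came from plants in a green house with 12 h of light at 28 °C and nights at 25 °C, so that growth site and tissue cannot be told apart for flower. Seed carries stage R4, the pod stage, in its own labels, which are followed here, although the protocol text of the leaf, flower and root labels gives R1. Powdered tissue (0.5 g for leaf, 1 g for the rest) was fixed with 1% formaldehyde, the nuclei were digested with 0.01, 0.03 or 0.1 unit of enzyme beside an aliquot without enzyme, and DNA under 100 bp was sequenced. Each library is a mixture of the cell types of its organ, so a site open in few cells and one weakly open in many cannot be told apart, and neither the number of plants per library nor whether replicates came from separate plants is stated. The lists hold positions and no expression values, so the tissue labels could not be checked against marker genes.

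As background, open chromatin in plants marks promoters and distal regulatory elements, where nucleosomes are displaced and transcription factors bind. Much of it is shared by many organs, and a smaller part opens in particular organs or stages. Flowers and seeds are both reproductive organs: the seed grows from the fertilised ovule inside the flower, and holds the embryo, the endosperm and the seed coat.

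The lists held 74278 to 75471 sites in leaf, 50078 to 62094 in flower, 63243 to 82798 in seed and 15185 to 18957 in root. Leaf, flower and seed sites were at least 100 bp wide and carry a score, whereas root sites went down to 49 bp and carry none, and 3869 root regions were reproducible, against 37701 or more in each other tissue. The read depth behind each list is unknown. A position missing from a list is therefore a position not called there, whether or not the chromatin was closed.

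Flower and seed rarely shared a region that leaf did not hold. Of the 21200 merged regions with flower and seed, 19648 also held leaf, which is 92.7% (95% Wilson interval 92.3 to 93.0, counting error only, as for every interval given here). Leaf was held by 73.3% of all merged regions, seed by 56.0% and flower by 43.8%. Where leaf was present, 67.0% of the flower regions held seed (66.4 to 67.5, 29344 regions). Where leaf was absent, 23.1% did (22.1 to 24.2, 6708 regions). Seen from seed the gap was wider: 63.0% of the seed regions with leaf held flower (62.5 to 63.5), against 10.4% of those without leaf (9.89 to 10.9). These counts are what the rule itself sorts by, so they are a description with no test. The 1523 members make up 4.22% of the merged regions with flower and 3.30% of those with seed. Leaf was shared far more often, with 9602 regions in leaf and flower only and 11274 in leaf and seed only. Leaf also had the most reproducible regions, 61056, against 37701 in flower and 47979 in seed.

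Most members were not free of leaf signal in the lists. A site of at least 1 leaf library lay in 971 of the 1523 members, which is 63.8% (61.3 to 66.1). Leaf 1 had a site in 595 members and leaf 2 in 392. Only 16 members met both leaf lists, and in 10 of these the leaf sites had no base in common, while in the other 6 they shared at most 19 bp, under the minimum of the rule. Among all merged regions not reproducible in leaf, 40.7% met a leaf site. The share was 44.7% for regions of flower alone and 37.1% for regions of seed alone, so the members carried such single-library leaf sites more often than either. No test was made of that gap, because every list entered the rule.

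The same held for the neighbouring classes. Of the regions of leaf and flower only, 77.7% met a site of a seed library, and of the regions of leaf and seed only, 60.6% met a site of a flower library. The members, at 63.8%, lay between them.

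Where a leaf site was present, it covered the shared open bases and did not just graze the edge. The median share of the bases open in flower and seed that the leaf site covered was 97.1% in the 595 members with leaf 1 and 95.1% in the 392 with leaf 2. All of these bases were covered in 277 and 176 members, and none in 23 and 24. The leaf sites stood low in their own lists, however. Their median score percentile, with the score ranked within the list, was 30.5 in leaf 1 and 26.6 in leaf 2, whereas all reproducible sites of those lists had medians of 59.7 and 58.5. Regions of leaf alone had medians of 39.7 and 38.7. The rule keeps reproducible leaf regions out of the members, so these comparisons set unlike sites side by side. In other regions that leaf did not hold, the leaf sites stood as low. Their medians in leaf 1 and leaf 2 were 27.2 and 25.8 for regions of flower alone, and 26.4 and 25.2 for regions of seed alone. The score is a value the authors attached to each site without saying how it is defined, so it serves only to rank sites within 1 list.

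Root sites were fewer. A root site lay in 172 members, or 11.3% (9.80 to 13.0), beside 10.0% of all merged regions not reproducible in root. Root 1 had a site in 84 and root 2 in 94 members, and 6 held both. They covered a median of 48.0% and 39.5% of the shared bases, on narrower sites.

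In all, 1031 members (67.7%) had a site in at least 1 leaf or root library, so that for them flower and seed only holds for reproducible regions and not for single lists. Members without any leaf or root site numbered 492, or 32.3% (30.003 to 34.695). Among all merged regions reproducible in neither leaf nor root the share was 56.0%. For comparison, 21.3% of the regions of leaf and flower only met no site of seed or root (20.5 to 22.2), and 36.5% of the regions of leaf and seed only met none of flower or root (35.6 to 37.3).

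**Figure D1:**
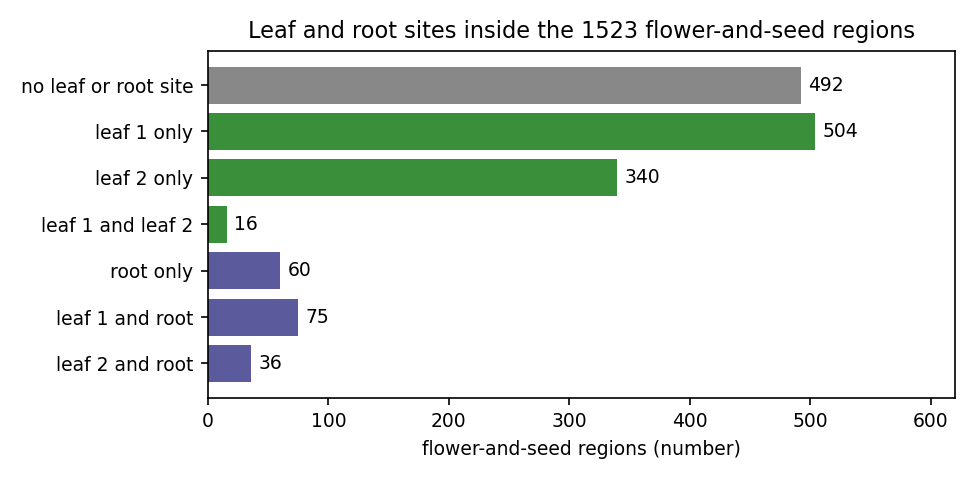
Number of flower-and-seed regions (horizontal axis) by the leaf and root libraries that have a site in them (vertical axis; grey no site, green leaf, blue root with or without leaf). The 16 regions with both leaf libraries include 1 with a root site. In 492 regions no leaf or root library has a site, 504 hold a site of leaf 1 alone and 340 of leaf 2 alone.

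Members with more open sequence in common held a leaf site more often. Among the 25% of members with the fewest bases shared by flower and seed (1 to 64 bp), 54.4% held a leaf site (49.3 to 59.3), and among the 25% with the most (121 to 336 bp), 74.1% did (69.5 to 78.2). Ranked by the lowest score percentile over flower 1, flower 2, seed 1 and seed 2, the share was 55.4% in the lowest 25% of members (50.4 to 60.3) and 67.7% in the highest 25% (62.9 to 72.2). Ranked by the width of the merged region, the share was 59.0% in the narrowest 25% (54.0 to 63.8) and 68.7% in the widest 25% (64.0 to 73.1). A wider member has more room for a site of another list, and that part of the differences was not tested.

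The open stretches were short and overlapped only in part. A member spanned a median of 185 bp (quartiles 152 and 229, range 66 to 494). Its flower part had a median of 126 bp and its seed part 146 bp, and the bases open in both had a median of 94 bp (quartiles 65 and 121). The seed part was the wider one in 922 members (60.5%) and the flower part in 590 (38.7%). Across all reproducible regions the medians were 153 bp in flower and 151 bp in seed, so both parts lay below the median of their tissue, the flower part by more.

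In 427 members the flower part lay wholly inside the seed part, and in 200 members the seed part lay inside the flower part. The centres of the flower and seed parts were a median of 33.5 bp apart. The shared bases made up a median of 51.9% of the merged region, against 66.1% in regions of leaf and flower only and 59.1% in regions of leaf and seed only. Those classes were wider as well, with medians of 216 and 213 bp. Almost every member, 1478 of 1523, held a single flower and a single seed region, and 57 members shared fewer than 20 bp between the tissues. The members without leaf or root sites were a little shorter, at a median of 177 bp with 84.5 bp shared, against 190 bp with 100 bp shared for the rest.

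Members took middle ranks by score within the whole lists, below the reproducible sites of the same lists. The highest-scoring site in a member had a median percentile of 43.0 in flower 1 and of 49.1 in flower 2. In seed 1 the median was 59.5 and in seed 2 it was 53.9. All reproducible sites of the lists had higher medians, 58.9 in flower 1, 65.6 in flower 2, 65.1 in seed 1 and 58.1 in seed 2. In each of these lists the members stood above the regions of that tissue alone, below the regions that leaf and the tissue share, and further below the regions of leaf, flower and seed. In flower 1 the medians of these classes ran from 38.4 for flower alone to 58.9 with leaf and 65.9 with leaf and seed. In flower 2 they ran from 41.4 to 63.0 and 74.0. In seed 1 they were 45.0 for seed alone, 62.5 with leaf and 78.9 with leaf and flower, and in seed 2 they were 47.6, 58.8 and 65.9. The order was the same in 4 of 4 lists, and is given as a description, since a region shared by more tissues had to be called in more lists. The interquartile ranges of the members overlapped those of every one of these classes.

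**Figure D2:**
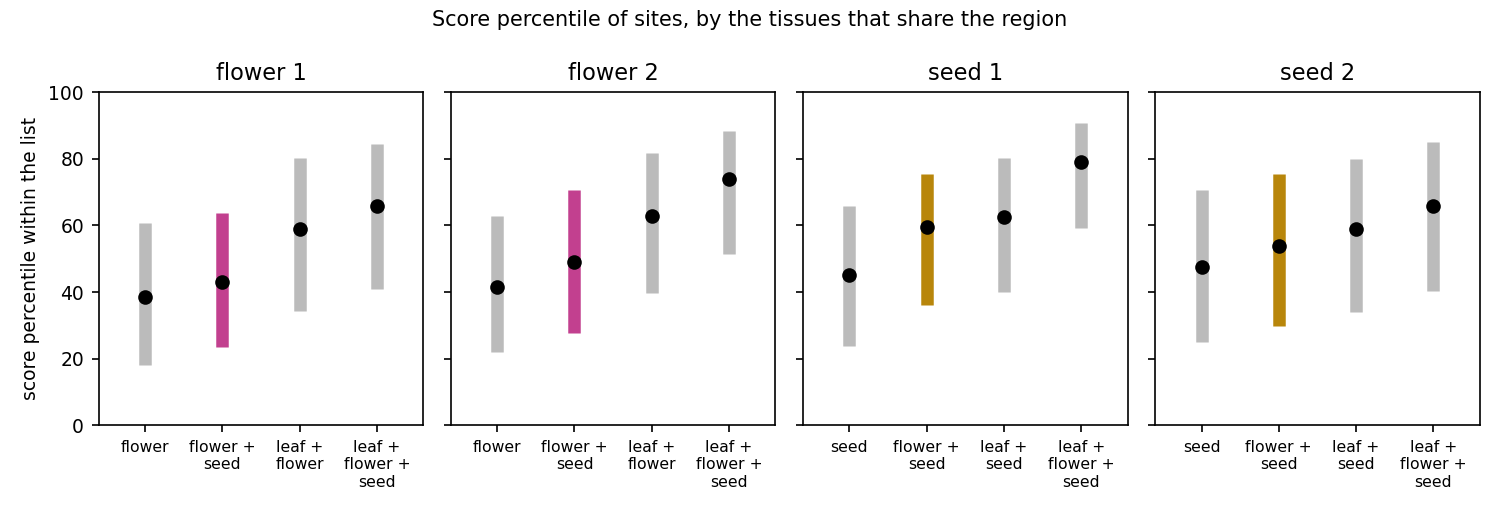
Score percentile within each flower and seed list (vertical axis) of the highest-scoring site in a region, by the tissues in which the region is reproducible (horizontal axis; root regions left out). Dots are medians and bars span the lower to the upper quartile, with the flower-and-seed regions in colour. The medians of the flower-and-seed regions are 43.0, 49.1, 59.5 and 53.9, second lowest of 4 classes in each list.

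The members without leaf or root sites ranked lower than the rest in all 4 lists. Their medians were 39.0 and 43.2 in the flower lists, where members with such a site had 44.9 and 52.1. In the seed lists they were 50.7 and 50.1, where members with such a site had 61.9 and 55.5. Only 147 members (9.65%) reached the 50th percentile in all 4 lists, and none reached the 90th in all 4. Of the 147, 105 held a leaf site and 32 were free of leaf and root sites.

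Ranks were only loosely tied from list to list. Over the 1523 members, which share their libraries, Spearman's rho was 0.19 between the flower lists and 0.29 between the seed lists. Between a flower and a seed list it ran from 0.023 to 0.091. Over all 21200 regions with flower and seed the values were 0.52 and 0.43 within tissues and 0.090 to 0.31 between them. These are descriptions across regions.

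Ranked by the lowest of its 4 percentiles, the first member was a stretch of 143 bp on chromosome 10, from 44020164 to 44020306. It stood at percentiles 87.5 and 94.0 in flower and 94.2 and 92.4 in seed. It was not free of the other tissues, since leaf 2 had a site of 134 bp there at percentile 81.4 and root 1 had a site of 60 bp. Of the 10 members with the highest ranks, 9 met a leaf site. Among them, the member on chromosome 4 at 39584402 to 39584547 met a leaf 1 site at percentile 92.3, and the member on chromosome 17 at 18233568 to 18233934 met leaf 1 and leaf 2 sites at percentiles 2.60 and 34.8 that had no base in common.

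The exception among these 10 was the member on chromosome 15 at 4180061 to 4180227. It stood at percentiles 89.0 and 96.4 in flower and 83.9 and 80.2 in seed, and no leaf or root list had a site in its 167 bp. The sites there were 167 and 192 bp wide in flower and 168 and 159 bp wide in seed. A reproducible leaf region ended 189 bp away, where flower and seed also had sites in both libraries, so the stretch held a site common to leaf, flower and seed with the flower-and-seed site beside it.

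The next members without leaf or root sites lay on chromosome 7 at 9799445 to 9799556, chromosome 18 at 5515942 to 5516175, chromosome 11 at 18105722 to 18105836 and chromosome 16 at 31562635 to 31562789. Their lowest percentiles were 72.5, 71.5, 71.5 and 71.3. On chromosome 16 the flower and seed regions had 150 bp in common of the 155 bp spanned. On chromosome 18 it was 69 of 234 bp, as the flower and seed sites were set off from each other. The nearest reproducible leaf region was 8323 bp away on chromosome 7, 3569 bp on chromosome 18, 1566 bp on chromosome 11 and 3419 bp on chromosome 16.

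**Figure D3:**
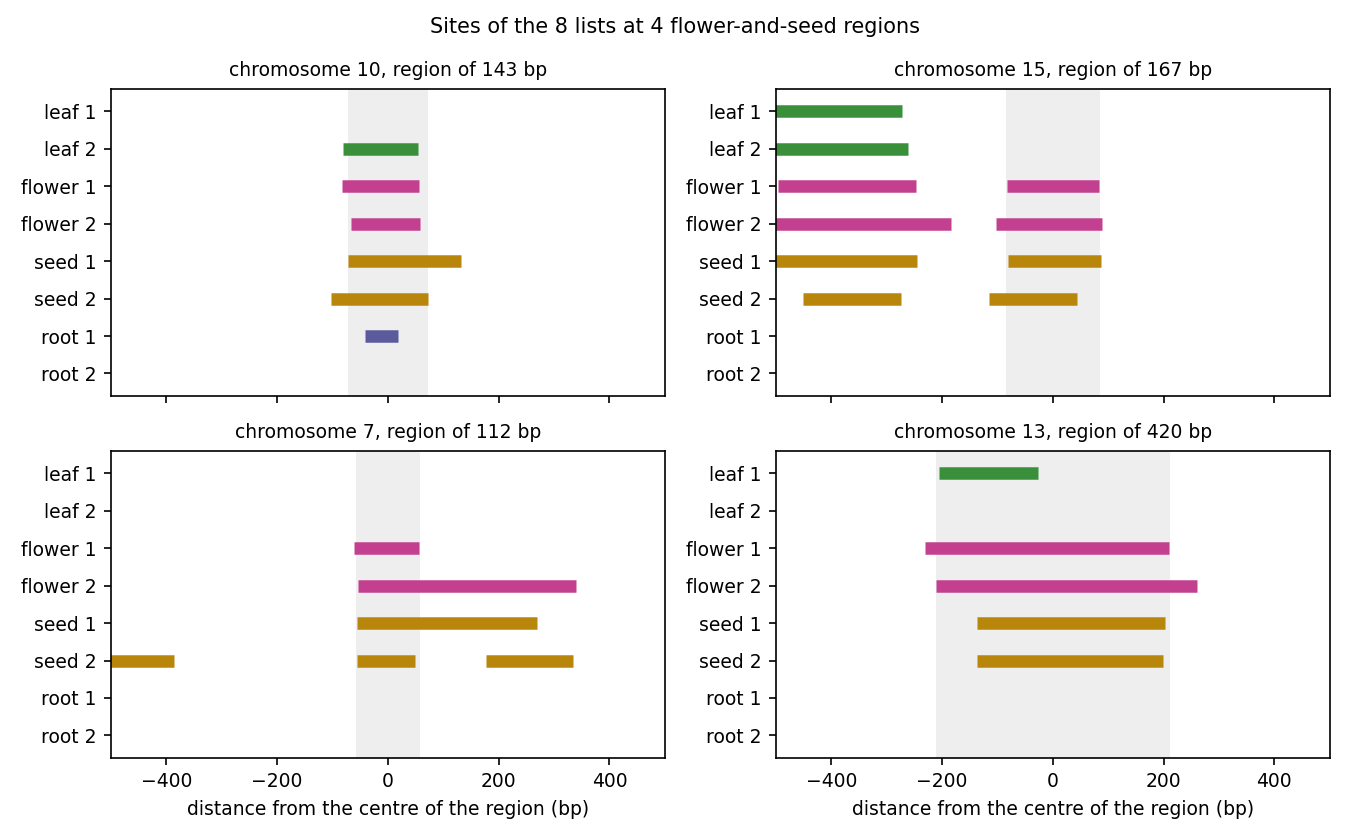
Sites of the 8 lists (rows, coloured by tissue) within 500 bp of the centre of 4 flower-and-seed regions, by distance from the centre in bp (horizontal axis); grey marks the merged region. The region on chromosome 10 also holds a leaf 2 and a root 1 site, that on chromosome 15 lies 189 bp from a site common to leaf, flower and seed, that on chromosome 7 has no leaf or root site in view, and that on chromosome 13 holds a leaf 1 site.

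The longest stretch open in flower and seed was 336 bp, on chromosome 13 at 44242090 to 44242509. Flower 1 and flower 2 had sites of 440 and 471 bp there and seed 1 and seed 2 sites of 339 and 336 bp, at percentiles 55.8, 66.8, 64.2 and 83.2. Leaf 1 had a site of 178 bp at percentile 21.0. The following stretches were 290 bp on chromosome 7 at 14805663, 284 bp on chromosome 3 at 23699829, 283 bp on chromosome 13 at 24151500 and 281 bp in the member on chromosome 17 at 18233568 named above. Each of these 5 members with the longest shared stretch met a leaf site in 1 or both leaf libraries, at percentiles of 2.60 to 40.2.

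At the minimum of the rule stood a member on chromosome 15 at 23586423 to 23586654, whose narrower intersection was 20 bp and whose flower and seed regions shared 2 bp. Just outside stood regions on chromosome 9 at 6847334 to 6847445 and on chromosome 20 at 32777515 to 32777640, each with an intersection of 19 bp.

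Members lay mainly towards the chromosome ends, as open chromatin did in general. The outer 20% at each end of a chromosome held 977 of the 1523 members, which is 64.1% (61.7 to 66.5), beside 65.9% of all merged regions. Per unit length the outer parts held 2.68 times as many members as the inner part. The ratio was 3.94 for regions of leaf and flower only, 2.86 for leaf and seed only, 3.55 for flower alone and 2.30 for seed alone. The share in the outer parts was below that of leaf and flower regions on 19 of 20 chromosomes, by 9.99 ± 6.05 percentage points (mean ± SD over chromosomes). Against leaf and seed regions it was lower on 10 chromosomes and higher on 10, with a difference of -2.31 ± 6.65 points, less than the spread between chromosomes. Chromosomes are not replicates of a tissue, so no p-value is attached. Members without leaf or root sites had a ratio of 3.06 and the rest 2.53, and their outer shares, 67.1% (62.8 to 71.1) and 62.8% (59.8 to 65.7), had overlapping intervals.

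**Figure D4:**
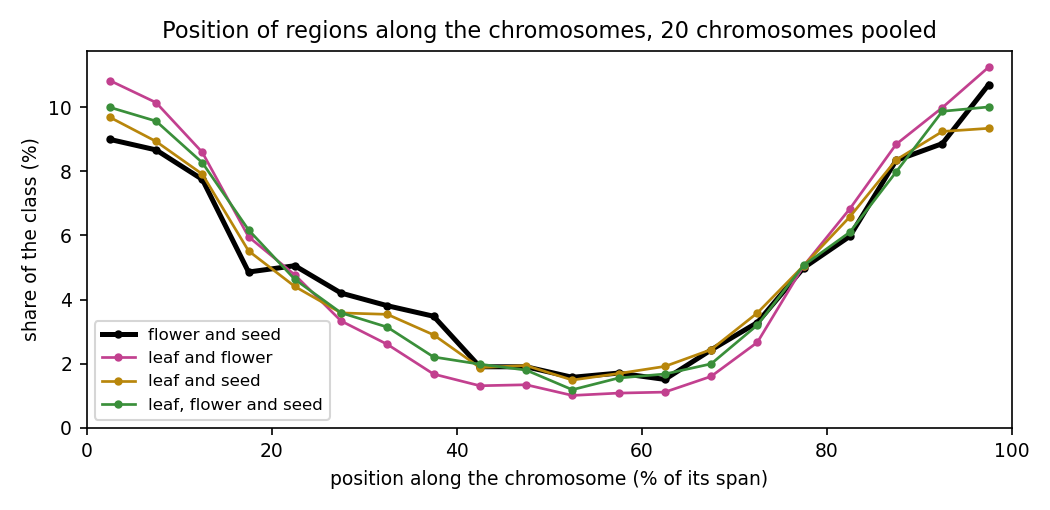
Share of each class of regions (vertical axis, %) in 20 equal bins along the chromosome (horizontal axis, % of the span), pooled over 20 chromosomes. All 4 classes are densest at the ends. The outer 20% at each end holds 64.1% of the flower-and-seed regions and 72.4% of the leaf-and-flower regions.

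Chromosome 2 carried the most members, 110, and chromosome 14 the fewest, 49. Per Mb this was 2.26 on chromosome 2 and 1.00 on chromosome 14. As a share of the merged regions, members ran from 1.42% on chromosome 14 to 2.33% on chromosome 1. On chromosome 13, 33.3% of the 90 members lay in the outer parts, against 50.7% to 80.3% on the others. The low share was that of the chromosome and not of the members alone, since 36.7% of all its merged regions and 32.5% of its leaf and seed regions lay there.

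Members lay in many windows along the chromosomes, and their spread was not tested against an even one. Of 956 windows of 1 Mb, 608 held a member, 219 of these a single one, and 84 held 5 or more. The fullest were the window of chromosome 4 that starts at 9000001 and that of chromosome 7 that starts at 39000001, with 9 members each out of 134 and 110 merged regions, followed by 6 windows with 8 members. The first of these in chromosome order was the window of chromosome 1 that starts at 53000001, with 223 merged regions. In the chromosome 4 window 1 of the 9 members was free of leaf and root sites, and in the chromosome 7 window 4 of 9. Members closer to each other than 1000 bp occurred in 12 pairs. The closest pair was 21 bp apart on chromosome 3, at 36352860 to 36353002 and 36353024 to 36353131. Both members of this pair had the same score percentile in flower 2, and likewise in seed 1, but not in flower 1 or seed 2. A single site of flower 2 and of seed 1 may therefore span both members, which was not tested.

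Around the members, other open regions were near. The nearest merged region of any class was a median of 1380 bp away, compared with 1139 bp for leaf and flower regions and 1447 bp for leaf and seed regions. That neighbour held seed in 60.7% of cases, beside 56.0% of all merged regions, and leaf in 65.9%, beside 73.3%. For regions of seed alone it held seed in 62.7% and leaf in 67.7%, and for regions of flower alone in 53.7% and 68.8%. The neighbour was itself a flower-and-seed region for 60 members, or 3.94%, beside 1.85% of all merged regions. Neighbours of the same class were also frequent for regions of flower alone (12.1%, beside 6.21% of all merged regions) and of seed alone (22.8%, beside 16.2%). The nearest reproducible leaf region was a median of 2369 bp away (quartiles 888 and 6682), against 1810 bp for regions of flower alone and 2427 bp for regions of seed alone. It lay within 1000 bp for 27.4% of the members, against 35.8% of regions of flower alone and 30.3% of regions of seed alone. For members without leaf or root sites, the nearest site of either leaf list was a median of 1334.5 bp away.

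Which regions count as flower-and-seed regions depended on where the lists stop. With the upper 50% of each scored list, and the root sites at or above the median width, the rule found 797 regions, and 145 of these (18.2%) met one of the 1523. In the whole lists 648 of the 797 (81.3%) lay in regions that leaf held reproducibly. With the 15000 highest-scoring sites of each scored list it found 398 regions, of which 12 met one of the 1523 and 386 lay in reproducible leaf regions. With the upper 50% of the flower and seed lists set against the whole leaf and root lists, an alternative chosen after seeing the data, 145 regions were left, and 31 of them met no leaf or root site.

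**Figure D5:**
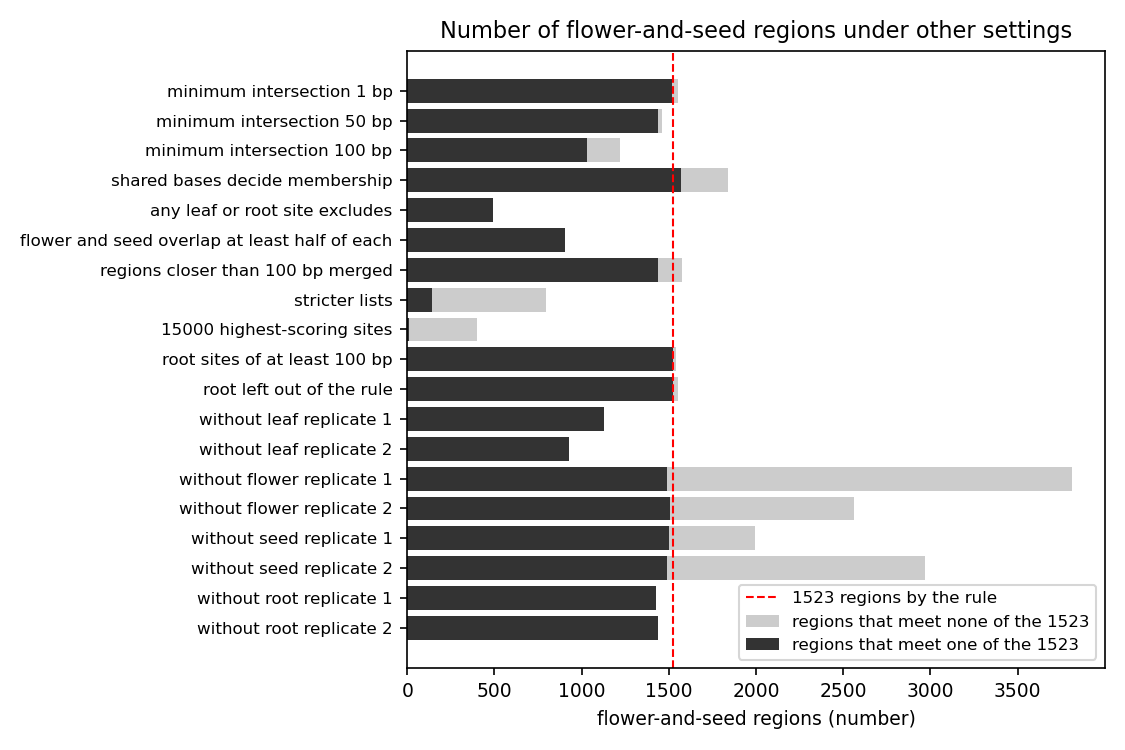
Number of flower-and-seed regions (horizontal axis) under other settings of the rule (vertical axis). The black part of each bar counts regions that meet one of the 1523 and the grey part regions that meet none; the dashed line marks 1523. With stricter lists 145 of 797 regions, and with the 15000 highest-scoring sites 12 of 398, meet one of the 1523.

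Single libraries moved the number too. With leaf 1 alone standing for leaf the count was 928, and with leaf 2 alone 1131. A leaf list that stands alone excludes every region it meets. These counts therefore only restate the 595 members met by leaf 1 and the 392 met by leaf 2. With 1 flower library the count was 3809 (flower 2) or 2562 (flower 1), and with 1 seed library 1995 (seed 2) or 2968 (seed 1). A single flower or seed list needs no second list to share its sites, so the rule was looser and more regions could pass. Root, with the shortest lists, made little difference: without it in the rule the count was 1552, and with a single root library 1429 or 1439. The counts with a single root library likewise restate the 94 members met by root 2 and the 84 met by root 1.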

How the data were processed

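Site lists of 8 libraries (2 each of leaf, flower, seed and root) were used as the authors deposited them, 1 list per library, with start and end of each site in base pairs and, except for root, a score that the authors deposited without a definition. The submitters' processing notes name Trimmomatic 0.36 and BWA 0.7.15-r1140. They and the labels name no site caller, calling threshold or genome build, so no sequence was read. Lines that occur a second time (479 and 649 in the root lists) were dropped. Starts were read as counting from 0 and are printed counting from 1.

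A gene table of Glycine_max_v4.0 was not used for positions: a gene end lay within 500 bp of the centre of 15.9% of the reproducible leaf regions, and of 15.2% when they were shifted by 50 kb either way.

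Sites met when they shared 1 bp. Overlaps and ranks were computed in Python 3.11.15 with numpy 2.4.6, pandas 2.3.3 and scipy 1.17.1. The rule was checked on simulated lists whose regions lay far apart and whose replicate sites overlapped widely. That check did not reach overlaps near the minimum of 20 bp. Intervals are 95% Wilson intervals. No p-value is given: the lists chose the regions, and the smallest two-sided exact permutation p for 2 against 2 libraries is 0.333. The regions and lists were chosen with earlier results of these data known. Regions named in the text were the 10 with the highest lowest-of-4 percentile, the 5 with the longest shared stretch, the 5 best ranked without leaf or root sites, the 3 fullest windows (ties by chromosome and start) and those at the minimum intersection. The closest pair of members was named after its values were seen. The alternatives tried were other minimum intersections, overlap and merging rules, stricter or equal lists, root filters and leaving out each library.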

Additional observations from a re-analysis of the deposited data

How the results depend on the processing

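No paired analysis was possible because the results come from no test. Values were compared with the interval or replicate SD of the value as reported, and counts with a factor of 1.5. The count of 1523 became 492 where any leaf or root site excludes, 907 where flower and seed overlap by at least 50% of each, 797 with stricter lists, 398 with the 15000 highest-scoring sites, and 145 with the upper 50% of the flower and seed lists against whole leaf and root lists. In the other 7 settings that left no library out it stayed within the factor, from 1219 with a minimum intersection of 100 bp to 1838 where the shared bases decide. Leaving out 1 library gave 928 to 3809. The share of members with a leaf or root site, 67.7%, became 75.6% with a minimum of 100 bp and 71.2% with the overlap of 50%. It became 96.1% with stricter lists and 99.5% with 15000 sites, where sites of the whole leaf and root lists were counted. Without a flower or seed library it was 59.9% to 64.0%. With root or 1 root library left out only leaf sites could count. The share was then 64.2% without root, 63.8% without root 1 and 63.6% without root 2, beside 63.8% of the 1523 with a leaf site. The median shared width of 94 bp became 109 bp with a minimum of 100 bp and 110 bp with the overlap of 50%. Both settings select on width or overlap themselves, so a rise there is built in. The width became 86 bp where shared bases decide, 84.5 bp where any site excludes and 91 bp with regions under 100 bp apart merged. With stricter lists it was 135 bp, with 15000 sites 174.5 bp, and without a library 90 to 106 bp. The outer-to-inner ratio of 2.68 became 3.06 where any site excludes, 3.28 with 15000 sites and 2.37 with the outer 10%, and 2.59 to 2.997 without a library. The mean of the median percentiles was 46.1 ± 4.27 (SD, n = 2 libraries) in flower and 56.7 ± 3.97 (SD, n = 2 libraries) in seed. It became 50.6 and 61.0 with a minimum of 100 bp, 41.1 and 50.4 where any site excludes, and 33.5 and 44.7 when ranked among reproducible sites. With stricter lists it was 72.8 and 80.0, and with 15000 sites 86.9 and 92.0. These 2 settings keep high-scoring sites and still rank them in the whole lists, so the rise is built in. Without a library it ran from 36.7 to 45.6 in flower and from 47.2 to 56.4 in seed. Measured from centre to centre, the median distance to a leaf region was 2605.5 bp. The share with a leaf or root site was not computed where any site excludes, which sets it to 0. It was also not computed without a leaf library, since the other leaf list then excludes every region it meets and only root sites could count. The causes were not tested beyond what each setting does to the lists. Depth is unknown, so a site missing from a list cannot be told from one below the calling threshold.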
